A study of Mus musculus with 21 samples.

Results

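The mitochondrial genome encodes some of the subunits of respiratory complexes I, III and IV and of the ATP synthase. The mRNAs of 10 of these subunits were followed here in mouse liver: mt-Nd1, mt-Nd2, mt-Nd4, mt-Nd5 and mt-Nd6 (complex I), mt-Cytb (complex III), mt-Co1, mt-Co2 and mt-Co3 (complex IV) and mt-Atp6 (ATP synthase). They were found in the count table by matching its Ensembl identifiers to these symbols in GENCODE M21, a gene annotation on the GRCm38 build. These are 10 of the 46078 rows of the table, 10 of its 13 rows for mitochondrial mRNAs and 10 of its 37 rows for genes of the mitochondrial genome, and all 10 passed the filter on low counts.

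Bulk RNA-seq was carried out on 21 livers, 1 library each, from 2 genotypes on 3 diets. Mice lacking Cse (gene symbol Cth), which makes cysteine from cystathionine, are labelled cse and called KO, and the comparison mice are labelled WT, although the text of the study describes its comparison mice as heterozygous for the deletion. The KO allele was on a mixed 129 and C57BL/6 background. All mice were male, at least 9 weeks old and calorie restricted, and received a defined amino acid diet (CTR), the same diet without cysteine (noCys) or without tryptophan (noTrp), with the other amino acids raised in proportion. The groups were WT CTR (3 libraries), KO CTR (4), WT noCys (4), KO noCys (3), WT noTrp (2) and KO noTrp (5). Levels are given as CPM, the counts of a gene scaled to the size of its library. Cth was at 108 to 451 CPM in the 9 WT libraries and at 6.33 to 14.98 CPM in the 12 KO libraries.

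Library totals were 8889951 to 27230852 counts, and the rows of the mitochondrial genome took 3.41% to 7.67% of them. Ribosomal RNA rows took 8.91% of the counts in WT CTR replicate 3 and at most 0.492% in any other library. Comparisons with WT CTR are therefore also described without that library. Summed hepatocyte markers (8 genes, all detected) were at 59246 to 109803 CPM, whereas 9 immune cell markers summed to 91.2 to 292 CPM and 6 skeletal muscle markers to 0.551 to 4.52 CPM. In bulk tissue, fewer cells of a type and less of an RNA per cell cannot be told apart.

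The mouse mitochondrial genome is a small circle that is transcribed from both strands into long precursor RNAs. The precursors are cut at the tRNAs that lie between most coding genes. Most of the mRNAs released in this way receive short poly(A) tails, which for some of them complete the stop codon. The libraries were poly(A)-selected, and how fully each mRNA was captured was not tested. Genes on 1 strand are thus transcribed together, and their mRNA levels also depend on processing and stability. The remaining subunits of the complexes are encoded in the nucleus and imported, so both genomes contribute to each complex.

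Of the 10 genes, 9 lie on the plus strand of the mitochondrial chromosome. In genome order these are mt-Nd1 (chrM:2751-3707), mt-Nd2 (chrM:3914-4951), mt-Co1 (chrM:5328-6872), mt-Co2 (chrM:7013-7696), mt-Atp6 (chrM:7927-8607), mt-Co3 (chrM:8607-9390), mt-Nd4 (chrM:10167-11544), mt-Nd5 (chrM:11742-13565) and mt-Cytb (chrM:14145-15288). mt-Nd6 (chrM:13552-14070) lies on the minus strand and shares 14 bases with the end of mt-Nd5. The strand setting of the counting is not given in the sources used here, so reads of mt-Nd6 and of RNA antisense to it may not be separated. Every one of these genes is a single exon. The coding lengths of mt-Nd4, mt-Cytb and mt-Co3 leave a remainder of 1 base after division into codons, as for genes whose stop codon is finished by the poly(A) tail. The reading frames of mt-Atp8 and mt-Atp6 overlap, and the shared stretch is shown because reads within it belong to both rows:

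mt-Atp8 and mt-Atp6, chrM:7927-7969, plus strand: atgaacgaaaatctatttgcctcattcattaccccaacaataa

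Several of the genes have copies in the nuclear genome that GENCODE M21 lists as pseudogenes. These copies were found by aligning the annotated transcripts with a minimum of 100 aligned bases and 95% identity. On chromosome 1, 7 copies lie side by side in chr1:24611535-24616197, in reversed order on the minus strand, and correspond to chrM:6390-11042. mt-Co2 was identical to Gm28661 over 681 of 684 bases, mt-Atp6 to Gm10925 over 678 of 681 bases and mt-Co3 to Gm28437 over 783 of 784 bases. mt-Nd4 was identical to Gm28439 over its first 876 bases, and the end of mt-Co1 matched Gm29216 at 482 of 483 bases. Copies on chromosome 2 were less alike, with 97.6% identity to mt-Co1 (Gm13340), 96.7% to the end of mt-Nd2 (Gm13339) and 95.9% to mt-Co2 (Gm13341). mt-Nd5 had a copy of 95.2% identity on chromosome 13 (Gm4076), and no copy passed these limits for mt-Nd1, mt-Nd6 or mt-Cytb.

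Stretches of 61 bases, the length of a sequencing read here, show how far a read can tell a gene from its copy. The first 3 below read the same in both places, and in the pairs that follow, capitals mark the bases that differ. All are from the GENCODE M21 transcripts (GRCm38).
mt-Co2, chrM:7323-7383, and Gm28661, chr1:24615195-24615255: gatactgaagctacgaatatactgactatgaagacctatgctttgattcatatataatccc
mt-Atp6, chrM:8236-8296, and Gm10925, chr1:24614282-24614342: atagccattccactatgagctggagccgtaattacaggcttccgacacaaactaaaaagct
mt-Co3, chrM:8968-9028, and Gm28437, chr1:24613550-24613610: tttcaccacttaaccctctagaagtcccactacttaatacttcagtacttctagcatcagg
mt-Co1, chrM:6390-6450: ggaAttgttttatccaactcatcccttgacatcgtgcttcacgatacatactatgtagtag
Gm29216, chr1:24616128-24616188: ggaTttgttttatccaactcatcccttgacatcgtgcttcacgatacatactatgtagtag
mt-Nd2, chrM:4667-4727: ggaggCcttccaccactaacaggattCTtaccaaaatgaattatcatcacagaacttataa
Gm13339, chr2:22590248-22590308: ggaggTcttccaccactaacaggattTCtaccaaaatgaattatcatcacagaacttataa

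Among all 61-base windows of a gene, the share also present in an annotated nuclear copy was 100% for mt-Co2, 99.9% for mt-Co3 and 99.5% for mt-Atp6. It was 61.9% for mt-Nd4, 46.1% for mt-Co1, 7.06% for mt-Nd2 and 2.04% for mt-Nd5, and no window of mt-Nd1, mt-Nd6 or mt-Cytb was found in a copy. mt-Co2, mt-Co3 and mt-Atp6 had median counts of 253, 114 and 106 per library, whereas the other 7 genes had medians between 23900 and 149414. All 6 mitochondrial mRNA genes that lie wholly inside the stretch copied to chromosome 1 (mt-Co2, mt-Atp8, mt-Atp6, mt-Co3, mt-Nd3 and mt-Nd4l) had medians of at most 253 counts, and each of the 7 that reach outside it had at least 23900. No window of mt-Atp8 was found in an annotated copy, and copies without annotation were not searched. mt-Co2, mt-Co3 and mt-Atp6 together made up 0.0462% to 0.158% of the counts of the 10 genes.

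The copies themselves held counts in the same range. Gm28661 had a median of 174 counts, Gm28437 180 and Gm10925 159. The median of mt-Co2 was 20.03 CPM alone and 42.8 CPM with its copies added, beside 10482 CPM for mt-Co1. How reads with more than 1 equal alignment were treated is not given in the sources used here, and the part of the shared sequence in the low counts was not tested. Levels and fold changes of mt-Co2, mt-Co3 and mt-Atp6 therefore come from few reads, nearly all of whose possible sequences a nuclear copy also holds.

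**Figure D1:**
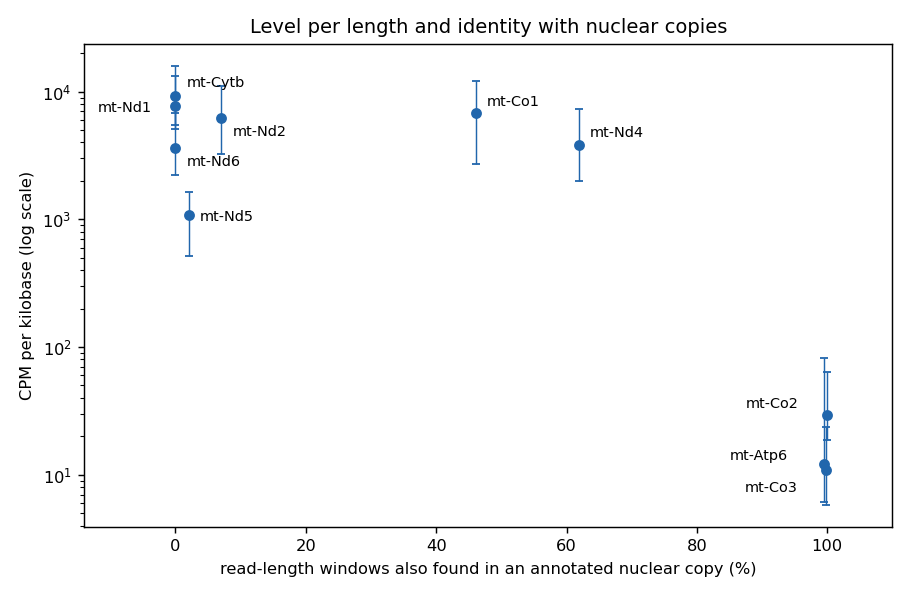
Level per length of the 10 mitochondrial mRNAs (CPM per kilobase, log axis) against the share of their 61-base windows that an annotated nuclear copy also holds. Points are medians and bars the range over 21 libraries. mt-Co2, mt-Co3 and mt-Atp6, at 99.5% to 100%, lie at 10.9 to 29.3 CPM per kilobase, and the other 7 lie at 1075 to 9269.

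Per length, mt-Cytb, the only mitochondrially encoded subunit of complex III, had the highest level. Its median was 9269 CPM per kilobase (range 5503 to 15909), and it was above the next gene, mt-Nd1 (7658 CPM per kilobase), in 21 of 21 libraries. mt-Nd1, mt-Co1 (6785) and mt-Nd2 (6175) followed, but their order was not stable, with mt-Nd1 above mt-Co1 in 14 and mt-Co1 above mt-Nd2 in 12 of 21 libraries. mt-Nd4 had 3847 CPM per kilobase and was below mt-Nd2 in 21 of 21 libraries. mt-Nd6 (3598) was below mt-Nd4 in 17 libraries. mt-Nd5, the largest of the genes, was lowest among the 7 well-counted ones at 1075 CPM per kilobase, below mt-Nd6 in 21 of 21 libraries. mt-Co2 (29.3), mt-Atp6 (12.2) and mt-Co3 (10.9) came last. The order depends on how length is counted: per 1000 windows that no annotated copy holds, mt-Co1 was at 13087 CPM and mt-Nd4 at 10559 CPM, above mt-Cytb at 9782 CPM.

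The 10 mRNAs did not vary as 1 unit across the 21 libraries. Correlations of log2 CPM are given here as a description, since all values of a library share its depth and scaling. mt-Nd1, mt-Nd2, mt-Nd4, mt-Nd6 and mt-Cytb moved closely together, with Pearson's r of 0.957 between mt-Nd1 and mt-Nd2 and 0.964 between mt-Nd4 and mt-Nd6. mt-Co2 was close to them, with r of 0.842 (mt-Cytb) to 0.916 (mt-Nd4). mt-Nd5 and mt-Co1 formed a second pair with r = 0.929, and remained alike after group means were removed (r = 0.890). The correlation of mt-Co1 with mt-Nd6 was 0.399 and with mt-Nd1 0.484. mt-Atp6 was the most variable, with a 13.4-fold range from 4.17 CPM in KO noCys replicate 1 to 55.9 CPM in KO CTR replicate 3. Outside the mitochondrial genome, the protein-coding genes whose log2 CPM was most like the mean of the 10 over 21 libraries were Fam8a1 (r = 0.896), Raph1 (0.870), Dnajc4 (0.848), Prkaca (0.845) and Smg6 (0.839).

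**Figure D2:**
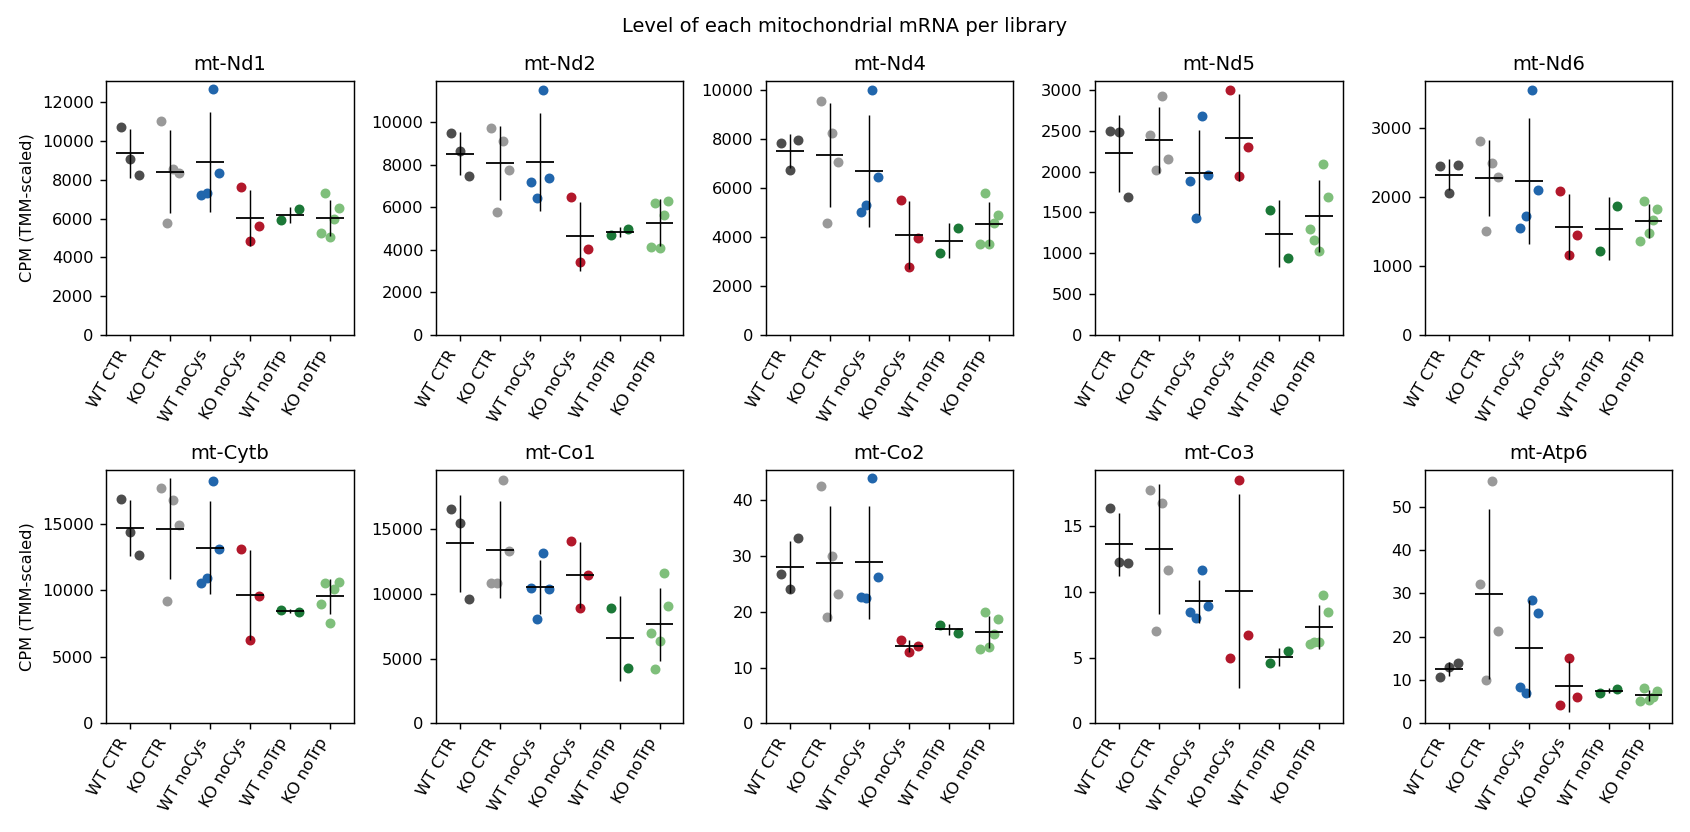
CPM of each mitochondrial mRNA in every library, by group. Points are libraries, horizontal lines group means and vertical lines 1 SD. mt-Co2 is lower in the 3 KO noCys libraries (12.8 to 14.9 CPM) than in any control library of either genotype (19.1 to 42.6), while mt-Nd5 in KO noCys (1952 to 3004 CPM) overlaps with the control libraries (1684 to 2934).

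The first comparison asked how KO and WT livers differ on the diet without cysteine. In KO noCys, 2 of the 10 mRNAs fell against WT noCys, mt-Nd2 and mt-Co2, and none rose. Among all 14370 genes tested in this comparison, 28.2% were called, and the 2 of 10 were not above that share. The log2 fold changes of the 10 ranged from -1.06 to 0.28 with a median of -0.54, beside a median of -0.02 over all genes.

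mt-Co2, which carries the copper centre that takes electrons from cytochrome c, had 22.7, 22.5, 43.9 and 26.2 CPM in WT noCys and 14.9, 12.8 and 13.9 CPM in KO noCys. The groups did not overlap, as was also so for 18.1% of all genes in this direction. The log2 fold change was -1.06 (SE 0.25, adjusted p = 0.00394, edgeR's quasi-likelihood test with Benjamini-Hochberg adjustment), and it kept its call in all 7 fits without 1 library (-1.16 to -0.79).

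mt-Nd2, a membrane-arm subunit of complex I, had 7166, 6409, 11503 and 7359 CPM in WT noCys and 6450, 3394 and 4016 CPM in KO noCys. KO noCys replicate 1 reached into the WT range. The log2 fold change was -0.81 (SE 0.24, adjusted p = 0.0159 by edgeR). The call was lost without WT noCys replicate 3 (-0.59), KO noCys replicate 3 (-0.63) or KO noCys replicate 4 (-0.72).

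mt-Nd4, another proton-pumping subunit of complex I, was at -0.72 (SE 0.27, adjusted p = 0.0503 by edgeR). mt-Nd1 was at -0.56, mt-Nd6 at -0.51, mt-Cytb at -0.45 and mt-Atp6 at -0.98, and none of these passed. By contrast, mt-Nd5 was at 0.28 (SE 0.25, adjusted p = 0.416 by edgeR) and mt-Co1, the catalytic subunit of complex IV with its haem and copper oxygen-reducing site, at 0.12 (SE 0.31, adjusted p = 0.790). WT noCys replicate 3 had the highest level of all 21 libraries for 6 of the genes, among them mt-Nd1, mt-Nd2 and mt-Cytb. Hepatocyte markers summed to 59246 to 82680 CPM in KO noCys and to 100887 to 109803 CPM in WT noCys, those of cholangiocytes to 17.2 to 20.3 CPM and 32.1 to 54.0 CPM, and those of erythroid cells to 138 to 176.0 CPM and 176.1 to 351 CPM. Their part in these differences was not tested.

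Within KO mice, the diet without cysteine was compared with the control diet. Here 4 of the 10 mRNAs fell, mt-Nd2, mt-Nd4, mt-Co2 and mt-Atp6, none rose, and 20.2% of all genes were called. The median log2 fold change of the 10 was -0.57, and 9 of 10 were below 0. mt-Co2 was at 42.6, 19.1, 30.1 and 23.1 CPM in KO CTR, above all 3 KO noCys libraries (log2 fold change -1.05, SE 0.25, adjusted p = 0.00594 by edgeR). It was the only one of the 10 whose CPM did not overlap, an order that 13.2% of all genes had.

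mt-Nd4 had 9569, 4577, 8251 and 7058 CPM in KO CTR and 5527, 2758 and 3935 CPM in KO noCys (log2 fold change -0.85, SE 0.27, adjusted p = 0.0293 by edgeR). KO CTR replicate 2 was the lowest KO CTR library for mt-Nd4 and lay below KO noCys replicate 1. mt-Nd2 was at -0.81 (SE 0.24, adjusted p = 0.0224). mt-Atp6, the proton channel subunit of the ATP synthase, had 32.1, 10.0, 55.9 and 21.2 CPM in KO CTR and 4.17, 15.1 and 6.16 CPM in KO noCys (log2 fold change -1.75, SE 0.52, adjusted p = 0.0217). Without KO CTR replicate 3 its fold change was -1.25 and not called. Of the 7 fits without 1 library, all kept mt-Co2. The calls of mt-Nd2 and mt-Nd4 were lost without KO CTR replicate 1 or 3 or KO noCys replicate 3 or 4, and that of mt-Atp6 without KO CTR replicate 3 or KO noCys replicate 1 or 4. In a fit to KO noCys and KO CTR alone only mt-Co2 kept its call, with adjusted p = 0.0504 for mt-Nd2, 0.0622 for mt-Nd4 and 0.0599 for mt-Atp6 by edgeR. Hepatocyte markers summed to 85609 to 94621 CPM in KO CTR, above the KO noCys range, and pancreas markers to 11.3 to 13.8 CPM in KO CTR and 14.9 to 17.6 CPM in KO noCys. Their part in these differences was not tested.

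mt-Nd5 was at 0.02 (SE 0.25) and mt-Co1 at -0.23 (SE 0.31) in the same comparison. The remaining values were -0.48 for mt-Nd1, -0.54 for mt-Nd6, -0.60 for mt-Cytb and -0.35 for mt-Co3. For mt-Co3, a membrane subunit of complex IV, the libraries of KO noCys were far apart at 4.96, 18.5 and 6.74 CPM. Without replicate 3 its fold change was -1.15 and past the threshold.

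In WT mice, removing cysteine gave no call among the 10 mRNAs, with 0.661% of all genes called. By edgeR, 0 of them had an unadjusted p under 0.05, where 2000 of all 14370 genes did. DESeq2 and limma-voom also called 0. The fold changes ranged from -0.55 (mt-Co3) to 0.47 (mt-Atp6) with a median of -0.11. On the control diet KO and WT were likewise without a call (0.320% of all genes, 0 by each tool). The median was -0.03. Of the 10, 1 gene, mt-Atp6 (1.24, SE 0.51, adjusted p = 0.418 by edgeR), had an unadjusted p under 0.05, beside 1379 of all 14370 genes. Leaving out WT CTR replicate 3 did not add a call in either comparison.

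An interaction term tested whether the change without cysteine differed between KO and WT mice. None of the 10 passed by edgeR, with 7.44% of all genes called. An unadjusted p under 0.05 was found for 3 of the 10 and for 3310 of all 14370 genes. The 3 were mt-Co2 at -1.09 (SE 0.35, adjusted p = 0.0619), mt-Atp6 at -2.22 (SE 0.73, adjusted p = 0.0678) and mt-Nd2 at -0.73 (SE 0.34, adjusted p = 0.192). Without WT CTR replicate 3 they were at -1.24, -2.30 and -0.65, and none of the 10 passed. DESeq2 called 2 (mt-Co2 and mt-Atp6) and limma-voom 1 (mt-Co2), while the 7.44% of all genes is by edgeR alone.

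**Figure D3:**
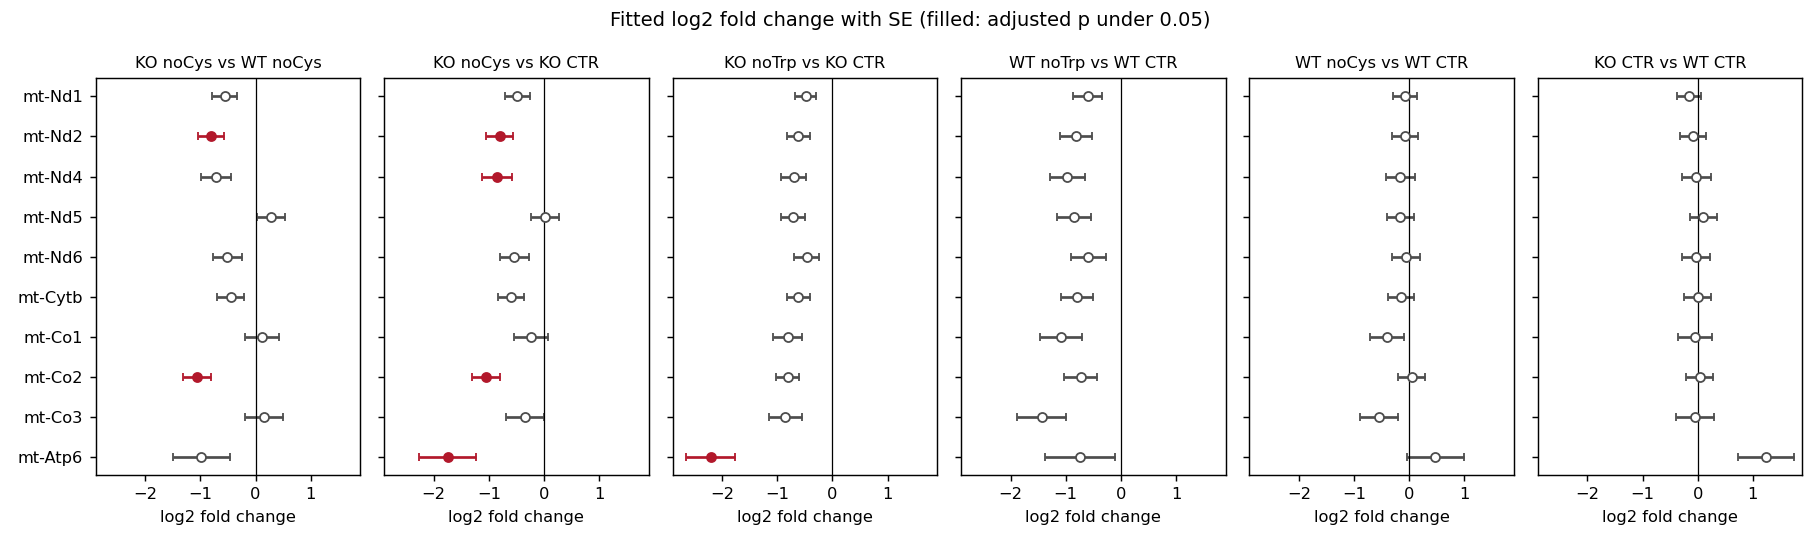
Log2 fold change with SE (edgeR) of the 10 mRNAs in 6 comparisons. Filled points have an adjusted p under 0.05. All 10 lie below 0 without tryptophan in both genotypes. In KO noCys, mt-Nd5 (0.28 against WT noCys, 0.02 against KO CTR) and mt-Co1 (0.12 and -0.23) lie near 0, and mt-Co2 (-1.06 and -1.05) lies lower.

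The diet without tryptophan served the study as a control for the loss of another essential amino acid. In KO mice, all 10 mRNAs were below KO CTR in log2 fold change, from -2.21 to -0.46 with a median of -0.71. Only mt-Atp6 passed, where 1.87% of all genes did. The unadjusted p was under 0.05 for 9 of the 10 and for 2432 of all 14370 genes. mt-Atp6 had 5.21, 8.15, 5.40, 6.02 and 7.38 CPM in KO noTrp against 10.0 to 55.9 CPM in KO CTR, and the groups did not overlap, an order that 3.15% of all genes had. Its log2 fold change was -2.21 (SE 0.45, adjusted p = 0.0133 by edgeR). The call was lost without KO CTR replicate 3 (-1.71).

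By adjusted p, mt-Co2 (-0.81, adjusted p = 0.0528 by edgeR) and mt-Nd5 (-0.72, adjusted p = 0.0932) came next. mt-Co1, with -0.81 (SE 0.27), was as low as mt-Co3 (-0.85) and mt-Nd4 (-0.70) here. mt-Co1 spanned 4163 to 11644 CPM in KO noTrp and 10812 to 18826 CPM in KO CTR, with 1 KO noTrp library reaching into the KO CTR range. DESeq2 called 5 of the 10 lower in this comparison and limma-voom 4, while the 1.87% of all genes is by edgeR alone.

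In WT mice the difference was of the same direction for all 10, with a median log2 fold change of -0.81 (range -1.43 to -0.59). No mRNA passed by edgeR, where 3.19% of all genes did. The unadjusted p was under 0.05 for 8 of the 10 and for 2615 of all 14370 genes. DESeq2 called 3 and limma-voom 0, while the 3.19% of all genes is by edgeR alone. In CPM, both WT noTrp libraries were below all 3 WT CTR libraries for each of the 10 genes, an order that 15.3% of all genes had in this comparison of 2 libraries with 3. mt-Cytb, which carries the b-type haems of complex III, had 8535 and 8349 CPM in WT noTrp against 16900, 14425 and 12690 CPM in WT CTR. mt-Nd1, which helps to form the ubiquinone pocket of complex I, had 5904 and 6475 CPM against 10727, 9102 and 8260. The median over the 10 stayed between -0.90 and -0.75 in the fits without 1 library, WT CTR replicate 3 included.

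As a share of the whole library, the 10 mRNAs took 3.32% and 3.32% of the counts in WT noTrp. In KO noTrp they took a median of 3.86% (3.09% to 4.32%). The medians were 5.75% in WT CTR and 5.92% in KO CTR (4.09% to 6.55%), so the KO ranges overlapped. On the diet without cysteine, the medians were 4.45% in WT and 4.29% in KO mice. Immune cell markers summed to 162 to 292 CPM in the 7 noTrp libraries and to 91.2 to 178 CPM in the other 14. Endothelial markers summed to 123 to 171 CPM in the noTrp libraries and to 85.5 to 143 CPM in the others. In KO noTrp against KO CTR, adipocyte markers (6 genes, 1 with no count) were at 11.5 to 17.3 CPM against 5.77 to 10.1 CPM, and pancreas markers (5 genes, 2 with no count) at 14.8 to 23.4 CPM against 11.3 to 13.8 CPM. In WT noTrp against WT CTR, stellate cell and fibroblast markers were at 188 to 260 CPM against 269 to 341 CPM. The part of these in the lower mitochondrial mRNA levels was not tested. Between the genotypes on this diet, none of the 10 was called (0.195% of all genes). By edgeR, 0 had an unadjusted p under 0.05, where 1281 of all 14370 genes did. DESeq2 and limma-voom called 0, and the log2 fold changes ran from -0.23 to 0.53.

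KO noCys and KO noTrp were compared directly. They differed in 1 of the 10 mRNAs, mt-Nd5, beside 13.9% of all genes. mt-Nd5, a large antiporter-like subunit at the far end of the membrane arm of complex I, had 3004, 1952 and 2301 CPM in KO noCys and 1296, 1158, 1021, 2097 and 1695 CPM in KO noTrp. Its log2 fold change was 0.73 (SE 0.24, adjusted p = 0.0419 by edgeR). The call was kept without KO noTrp replicate 4 or 5 and lost without any other of the 8 libraries, with values of 0.55 to 0.90 over these fits. It was also lost in a fit to KO noCys and KO noTrp alone (0.73, adjusted p = 0.0605). mt-Co1 was at 0.59 (SE 0.29, adjusted p = 0.184), while mt-Nd1, mt-Cytb, mt-Nd6, mt-Nd4 and mt-Nd2 were between -0.19 and 0.02. Between KO noCys and KO noTrp, immune markers (97.8 to 139 against 162 to 292 CPM) and endothelial markers (99.0 to 105 against 123 to 162 CPM) did not overlap. Cholangiocyte markers were at 17.2 to 20.3 CPM in KO noCys, below each KO noTrp library, which reached 51.2 CPM. The part of these in the values of the mRNAs was not tested.

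The share of each gene in all counts of the mitochondrial genome was then examined. These counts include mt-Rnr1 and mt-Rnr2, which took 5.83% to 10.7% of them in KO noCys and 10.8% to 14.6% in WT noCys. mt-Nd5 made up 5.61% ± 0.260 of them in KO noCys (SD, n = 3) against 3.32% ± 0.320 in WT noCys (n = 4), 3.86% ± 0.561 in KO CTR (n = 4) and 3.59% ± 0.686 in KO noTrp (n = 5). mt-Co1 made up 26.6% ± 0.972 in KO noCys, 17.8% ± 2.12 in WT noCys, 21.6% ± 4.68 in KO CTR and 19.0% ± 5.62 in KO noTrp, where 1 library lay above the lowest of KO noCys. mt-Nd2 went the other way, with 10.5% ± 1.07 in KO noCys against 13.5% ± 0.361 in WT noCys and 12.8% ± 0.655 in KO CTR. For these 3 genes the shares of KO noCys did not overlap with those of WT noCys or of KO CTR. The shares of mt-Co2 against WT noCys and of mt-Nd4 against KO CTR were also lower without overlap. A background over all genes was not computed for shares. In CPM, KO noCys lay below each WT noCys library for 18.1% of all genes and above for 19.4%. Against KO CTR these were 13.2% and 15.4%.

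Exact two-sided permutation tests over libraries were run on the log2 share of each gene, 60 tests in all, with unadjusted p. Of these, 40 were planned. Those of KO noCys against KO CTR and against KO noTrp were not, and were added later. Between KO noCys and WT noCys the smallest p that 3 against 4 libraries allow is 0.0571. It was reached by mt-Nd5 (log2 ratio of shares 0.76), mt-Co1 (0.59), mt-Nd2 (-0.36) and mt-Co2 (-0.54). As shares of the 10 mRNAs alone, these were 0.67, 0.50, -0.45 and -0.62. Over the 3 diets, with labels permuted within each diet, the share of mt-Nd5 was higher in KO (0.41, exact permutation p = 0.00739), and that of mt-Co1 was at 0.30 (exact permutation p = 0.125). The shares of mt-Nd5 in KO and WT overlapped on the control diet (3.86% and 3.11% on average) and without tryptophan (3.59% and 3.30%), and did not overlap without cysteine. Without WT noTrp replicate 2, mt-Nd5 was at 0.30 and no longer past 0.05, and without WT CTR replicate 3 it was at 0.34 and still past it.

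Over both genotypes, the share of mt-Nd5 was higher without cysteine than on the control diet (0.34, exact permutation p = 0.0310), a call that was lost without any of 9 of the 14 libraries, where the value was 0.23 (WT CTR replicate 3) to 0.35. By genotype, the mean share was 5.61% in KO noCys and 3.86% in KO CTR, without overlap, and 3.32% in WT noCys and 3.11% in WT CTR, with overlap. The WT CTR libraries were at 3.35%, 3.73% and, in replicate 3, 2.24%. Without tryptophan, the shares of mt-Nd1 (0.27, exact permutation p = 0.0190) and mt-Nd6 (0.26, exact permutation p = 0.0349) were higher than on the control diet. The mt-Nd1 call was kept without any 1 library, whereas that of mt-Nd6 was lost without any of 8 of the 14 libraries (0.09 without WT noTrp replicate 2, 0.24 to 0.27 without the others). WT CTR replicate 3 was not among these 8 (0.21 for mt-Nd1 and 0.27 for mt-Nd6 without it). mt-Nd5 was at -0.02 and mt-Co1 at -0.20 in that test. Between KO noCys and KO noTrp, mt-Nd5 (0.66) and mt-Nd2 (-0.31) had p = 0.0357 by the exact permutation test, the smallest that 3 against 5 libraries allow. This comparison of shares was among the tests that were not planned.

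Ratios within a library do not depend on how libraries are scaled. The ratio of mt-Nd5 to mt-Nd2 counts was 0.466, 0.575 and 0.573 in KO noCys and between 0.186 and 0.374 in the other 18 libraries. Its median in KO noCys was 2.16 times that in the others. The ratio of mt-Co1 to mt-Nd2 was 2.18, 2.63 and 2.85 in KO noCys and 0.670 to 2.08 elsewhere. mt-Nd6 to mt-Nd5, the pair that lie tail to tail on opposite strands, was 0.594 to 0.695 in KO noCys and 0.747 to 1.98 elsewhere. In these 3 ratios the KO noCys libraries did not overlap with any other library. Of 6 ratios computed, mt-Nd5 to mt-Nd4 also did not overlap (0.544 to 0.708 against 0.199 to 0.461). The other 2 overlapped, mt-Co1 to mt-Cytb (1.08 to 1.42 against 0.394 to 1.17) and mt-Nd2 to mt-Nd1 (0.698 to 0.845 against 0.770 to 1.06). The ratios were chosen with the values known and carry no test. mt-Nd2 and mt-Nd5 hold few windows shared with annotated nuclear copies (7.06% and 2.04%). Their ratio thus rests on reads that can mostly be told from annotated copies, and copies without annotation were not searched.

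**Figure D4:**
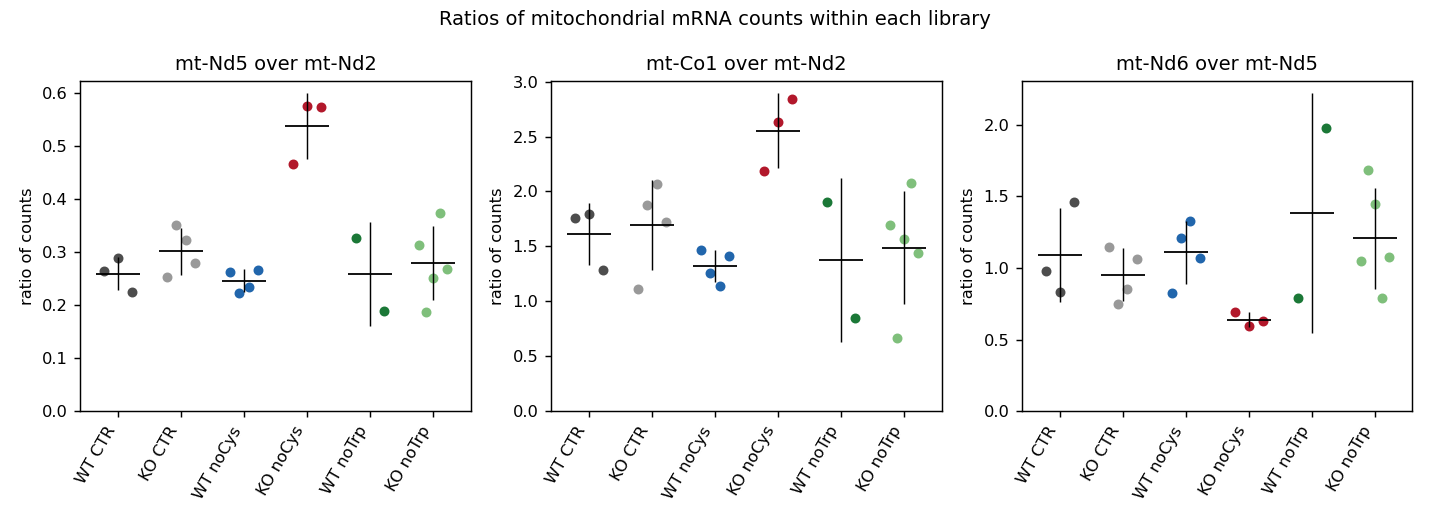
Ratios of mitochondrial mRNA counts in every library, by group. Points are libraries, horizontal lines group means and vertical lines 1 SD. KO noCys stands above all others in mt-Nd5 over mt-Nd2 (0.466 to 0.575 against at most 0.374) and in mt-Co1 over mt-Nd2, and below them in mt-Nd6 over mt-Nd5.

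The 2 ribosomal RNAs of the mitochondrion, mt-Rnr1 and mt-Rnr2, are transcribed ahead of mt-Nd1. In KO noCys against WT noCys, mt-Rnr1 fell by 1.47 (SE 0.34, adjusted p = 0.00298 by edgeR) and mt-Rnr2 fell by 1.12 (SE 0.34, adjusted p = 0.0199) on the log2 scale. mt-Rnr1 had 1288, 1484 and 1435 CPM in KO noCys and 3695, 3518, 5679 and 2696 CPM in WT noCys. Against KO CTR, mt-Rnr1 fell by 0.97 (adjusted p = 0.0443) and mt-Rnr2 was at -0.81 (adjusted p = 0.0987). The ribosomal RNA rows outside the mitochondrial genome took 0.190% to 0.215% of the counts in KO noCys, 0.212% to 0.303% in WT noCys and 0.244% to 0.492% in KO CTR, and their part in these differences was not tested. The mt-Rnr2 call against WT noCys was lost without WT noCys replicate 3 (-0.83, adjusted p = 0.0772) or any 1 KO noCys library (adjusted p = 0.0529 to 0.0658). The mt-Rnr1 call against WT noCys was kept in each fit without 1 library, and that against KO CTR was lost without KO CTR replicate 1, 3 or 4 or any 1 KO noCys library. In WT CTR replicate 3, the library rich in ribosomal RNA, mt-Rnr1 and mt-Rnr2 were at 10104 and 14378 CPM and took 32.6% of the mitochondrial counts, against 5.83% to 14.6% elsewhere. In KO CTR against WT CTR, mt-Rnr1 was at -1.05 and mt-Rnr2 at -1.15, and without that library both were at -0.34. The interaction was at -0.42 and 0.03, and at -1.14 and -0.78 without that library. None of these values was called. mt-Rnr1 fell by 1.57 in WT noTrp against WT CTR (adjusted p = 0.0400), and was at -0.86 (adjusted p = 0.210) without that library. This call was also lost without either WT noTrp library.

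Of the 73 nuclear genes listed for subunits of the same 4 complexes, 72 were tested. In KO noCys against WT noCys 30 fell and 1 rose (Atp5g1, named after its value was seen), where 13.4% of all genes fell, and the median log2 fold change of the 72 was -0.30. Against KO CTR 51 fell and none rose, where 9.59% of all genes fell, with a median of -0.45. By complex, 27 of 36 subunits of complex I, 5 of 9 of complex III, 11 of 12 of complex IV and 8 of 15 of the ATP synthase fell against KO CTR. Among the largest changes against WT noCys were the accessory subunit genes Ndufa1 (-1.07, SE 0.13, adjusted p = 1.05e-05 by edgeR), Uqcr11 (-0.91, SE 0.17, adjusted p = 0.000479) and Atp5k (-1.13, SE 0.17, adjusted p = 6.96e-05). Cox7a1, an isoform typical of muscle, fell by 2.74 (adjusted p = 0.000532) but had at most 3.04 CPM in these groups.

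In KO noTrp against KO CTR 1 of 72 nuclear subunits fell (Ndufv3, named after its value was seen, -0.47, adjusted p = 0.0259 by edgeR), with a median of -0.16, and in WT noTrp against WT CTR none of 72 passed, with a median of -0.01 (0.02 without WT CTR replicate 3, again with none). Of all genes, 1.87% and 3.19% were called in these comparisons, so few calls among 72 genes are near the background. The medians of the 10 mitochondrial mRNAs in these comparisons were -0.71 and -0.81. In KO noCys against KO CTR the medians were closer, at -0.45 for the nuclear and -0.57 for the mitochondrial genes. The difference between the nuclear and the mitochondrial sets was not tested. The KO comparisons share the KO CTR libraries.

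**Figure D5:**
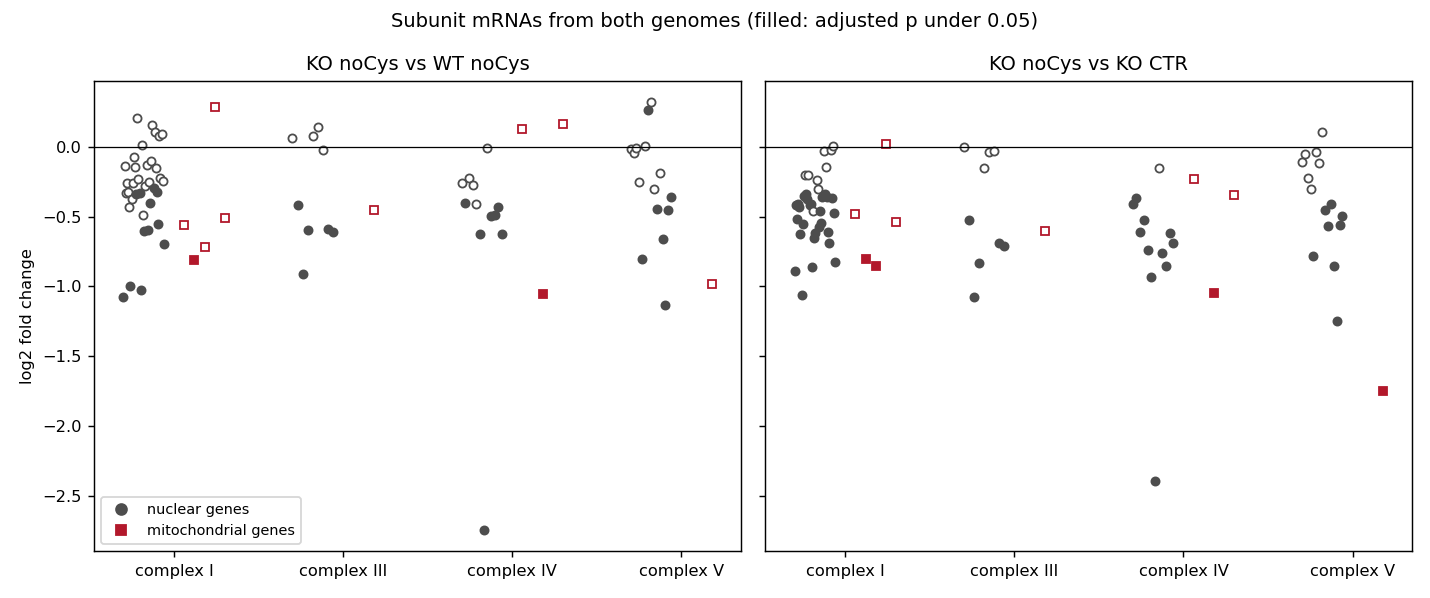
Log2 fold change (edgeR) of the subunit mRNAs of complexes I, III, IV and V (the ATP synthase) from the nuclear genome (grey circles, 72 genes) and the mitochondrial genome (red squares, 10 genes) in KO noCys. Filled symbols have an adjusted p under 0.05. Of the nuclear genes, 30 fell against WT noCys and 51 against KO CTR, and of the mitochondrial ones 2 and 4.

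Genes that act on mitochondrial transcripts were read from lists of nuclear genes. Of 18 genes for transcription and replication, 5 rose and 1 fell in KO noCys against WT noCys, and 4 rose and 2 fell against KO CTR, where 28.2% and 20.2% of all genes were called. Tfb1m, which methylates the small ribosomal RNA, rose by 0.89 (SE 0.17, adjusted p = 0.000617 by edgeR), from 5.69 to 7.20 CPM in WT noCys to 11.9 to 13.2 CPM in KO noCys. Twnk, the helicase of mitochondrial DNA replication, rose by 0.70 (adjusted p = 0.00171) and Mterf2, of the mitochondrial termination factor family, by 1.01 (adjusted p = 0.0262).

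Of 21 tested genes for RNA processing, stability and decay, 9 rose and 1 fell against WT noCys (28.2% of all genes called), and 2 rose and 1 fell against KO CTR, a share below the 20.2% of all genes. Rexo2, an oligoribonuclease that degrades short RNAs in mitochondria, rose by 0.97 (SE 0.09, adjusted p = 6.21e-07), with 137 to 148 CPM in KO noCys against 63.3 to 79.4 in WT noCys and 76.2 to 91.4 in KO CTR. Tbrg4, a FASTK family protein that binds mitochondrial RNA, rose by 0.59 (adjusted p = 8.12e-05). Slirp, which with Lrpprc stabilizes mitochondrial mRNAs, fell by 0.69 (SE 0.18, adjusted p = 0.00666), with 12.8 to 17.4 CPM in KO noCys and 18.9 to 30.4 CPM in WT noCys. Its partner Lrpprc, named after its value was seen, rose by 0.54 (SE 0.11, adjusted p = 0.00100). Against KO CTR, Rexo2 rose by 0.74 and Slirp fell by 0.81 (adjusted p = 1.71e-05 and 0.00315). Among 11 biogenesis regulators, Gabpb1, a subunit of the factor NRF-2 (GABP), rose by 0.52 (adjusted p = 0.0173) against WT noCys, and none passed against KO CTR. Esrra, which encodes the nuclear receptor ERR alpha, was the 1 regulator that passed in WT noTrp against WT CTR (0.84, SE 0.17, adjusted p = 0.0122), where 3.19% of all genes were called, and is named after its value was seen. Its call was lost without WT CTR replicate 3 (0.76, adjusted p = 0.0536). No gene of the first 2 lists passed in either noTrp comparison with the control diet, where 1.87% (KO) and 3.19% (WT) of all genes were called.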

How the data were processed

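Liver RNA of 21 mice was sequenced by the authors as poly(A)-selected paired-end reads of 61 bases, aligned with HISAT2 2.1.0 to GRCm38 and counted per gene with HTSeq 0.11.0. The deposited values are raw integer counts, 1 column per library. 1 further column matched no sample and was not used. Of 46078 rows, 45229 were in GENCODE M21, and the others held 0.0536% of the counts. Groups and replicate numbers are from the sample titles. The study reports drawing control and experimental animals from shared litters where it could. Nothing says which libraries share a litter or a day.

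Genes were kept by filterByExpr (minimum count 10, minimum total 15; 14370 of 26504 with any count). A one-way model over 6 groups was fitted to all libraries with edgeR 4.0.16 in R 4.3.3 (TMM factors 0.883 to 1.14; quasi-likelihood F-test, two-sided; Benjamini-Hochberg adjustment over all 14370 genes; called under 0.05). DESeq2 (used by the study; version 1.42.0 here) and limma-voom with quality weights (limma 3.58.1) were alternatives. CPM are counts relative to the TMM-scaled library size. The fit was tested on simulated data. Nuclear copies were found with blastn 2.17.0. Shares of mitochondrial counts were compared by exact permutation tests (scipy 1.17.1). The genes described, their lists and the ratios were chosen with earlier results of these data known. By the naming rule, all 10 mRNAs are named, and of each nuclear list the 3 called genes of largest change in the KO noCys comparisons could be, and others are marked as named after their values were seen. No 2 libraries of a group were identical (29 pairs; chi-square per degree of freedom at least 11.5). SE and p cover only the spread between libraries.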

Additional observations from a re-analysis of the deposited data

How the results depend on the processing

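No log2 fold change or share that passed a threshold changed direction under any alternative; 91 of 1610 recomputed fold changes changed sign, none of them past the threshold before or after. In KO noCys against WT noCys, where 2 of the 10 mRNAs were called, DESeq2 and limma-voom with quality weights each called 4, as did counts with the nuclear copies added, an alternative chosen after seeing the data. Against KO CTR (4 called), limma-voom called 7 and a fit to the compared groups alone 1. In KO noTrp against KO CTR (1 called), DESeq2 called 5, limma-voom 4, and the fit with no filter and the added copies 3 each. In WT noTrp against WT CTR (0 called), DESeq2 called 3 and the fit with no filter 1. For the interaction (0 called), DESeq2, no filter and the added copies gave 2 each and limma-voom 1. In KO noCys against KO noTrp (1 called), the fit to the compared groups alone gave 0. Other scalings (RLE factors, totals alone, mitochondrial or ribosomal RNA rows left out of the totals) kept each count within 1.5 times. Shares of all genes called are given for the main edgeR fit alone. For genotype, 3 shares passed under either other denominator (the 10 mRNAs alone, or the mitochondrial rows without ribosomal RNA) against 1: mt-Nd5 at 0.31, mt-Nd1 at -0.16 and mt-Nd2 at -0.17.

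Leaving out each library gave 1 to 5 calls in KO noCys against WT noCys, 1 to 6 against KO CTR, 0 to 1 against KO noTrp, 0 to 5 in KO noTrp against KO CTR, 0 to 2 for the interaction and 0 in the other comparisons. Shares gave 0 to 2 calls for genotype, 0 to 1 without cysteine, 1 to 3 without tryptophan and 0 in KO noCys against KO noTrp, where 1 library fewer cannot reach 0.05. With the replicate number as a block, KO noCys against KO CTR gave 3 calls and against KO noTrp 0, and the count of no other comparison moved. The numbers did not pair libraries: over 41 same-numbered pairs the correlation of deviations was -0.355 to 0.353 (median -0.03, 9 over 0.1), and 7 of 20 libraries were most alike one of their own number. Groups of 2 to 5 libraries limit every comparison, and low counts limit mt-Co2, mt-Co3 and mt-Atp6.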

Other observations

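The nuclear subunit mRNAs were also compared between the diets lacking each amino acid. In KO noCys against KO noTrp, 27 of 72 fell and none rose, with a median log2 fold change of -0.30, where 13.9% of all genes were called. These were 10 of 36 subunits of complex I, 3 of 9 of complex III, 7 of 12 of complex IV and 7 of 15 of the ATP synthase. In the interaction of genotype with the diet lacking cysteine, 26 of 72 passed, all below 0 (a lower KO minus WT response), and the median was -0.46, where 7.44% of all genes were called. Without WT CTR replicate 3, 21 passed and the median was -0.50. The medians of the 10 mitochondrial mRNAs in the same comparisons were 0.01 and -0.47. Between KO and WT on the control diet, none of the 72 passed by edgeR, where 0.320% of all genes were called, and the median was 0.15 (0.19 without WT CTR replicate 3).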
